A study of Homo sapiens with 12 samples.

Results

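The 8 genes described here encode enzymes that detoxify quinones, carbonyls, aldehydes, epoxides and esters, and were taken by name (NQO1, PTGR1, CBR1, CBR3, ALDH3A1, ALDH3A2, EPHX1 and AADAC) out of 16705 genes of a human RNA sequencing table. RNA came from liver spheroid co-cultures of C3A cells, a clone of the HepG2 hepatoma line used as a hepatocyte model, and LX-2 cells, an immortalized line of activated hepatic stellate cells. There were 12 libraries, 3 in each of 4 groups, namely untreated spheroids at 24 h, spheroids exposed to 1% total parenteral nutrition (TPN) for 24 h, untreated spheroids at 144 h and spheroids exposed to 1% TPN for 144 h. TPN, the feeding solution given by vein to patients who cannot eat, combined glucose, amino acids with electrolytes, a lipid emulsion, vitamins and trace elements. The groups shared cell lines and medium and differed in TPN and in time. Many spheroids were pooled for each library, the C3A line is a single clone, and the C3A cells were seeded in large excess, so a library averages both lines. In such bulk samples fewer cells of a type and less RNA per cell cannot be told apart. The p values measure the spread between these libraries.

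Reactive carbonyls arise when lipids are oxidized, when sugars are degraded and when drugs and steroids are metabolized, and the liver clears them by parallel routes. Reductases add electrons to quinones, to double bonds next to a carbonyl or to the carbonyl itself. Here they are NQO1, PTGR1 and the carbonyl reductases CBR1 and CBR3. Aldehyde dehydrogenases such as ALDH3A1 and ALDH3A2 oxidize aldehydes to acids. Hydrolases such as EPHX1 and AADAC act on other compounds and open epoxides or split esters. Several of these genes are known targets of the transcription factor NRF2, encoded by NFE2L2, which binds antioxidant response elements when its repressor KEAP1 is inactivated.

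Promoter windows of 300 bases, from 250 before to 50 after a transcript start, were read from the RefSeq sequences of GRCh38.p14 and found for 6 of the 8 genes, in 9 windows. CBR3 and ALDH3A1 had none. The windows shown are those of the 3 reductases of the set that had one, together with the EPHX1 window that held the antioxidant response element core, each printed 5′ to 3′ on the strand of the gene. Capitals mark matches on either strand to the core TGACNNNGC, to its looser form TGANNNNGC, which includes the core, or to the dioxin response core GCGTG.
NQO1, chr16:69726511-69726810, minus strand: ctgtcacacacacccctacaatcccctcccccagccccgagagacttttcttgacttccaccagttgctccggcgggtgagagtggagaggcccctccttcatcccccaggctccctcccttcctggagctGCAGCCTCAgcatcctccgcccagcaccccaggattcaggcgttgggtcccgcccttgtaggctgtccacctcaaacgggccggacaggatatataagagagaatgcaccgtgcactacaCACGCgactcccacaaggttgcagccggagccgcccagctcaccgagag
PTGR1, chr9:111599382-111599681, minus strand: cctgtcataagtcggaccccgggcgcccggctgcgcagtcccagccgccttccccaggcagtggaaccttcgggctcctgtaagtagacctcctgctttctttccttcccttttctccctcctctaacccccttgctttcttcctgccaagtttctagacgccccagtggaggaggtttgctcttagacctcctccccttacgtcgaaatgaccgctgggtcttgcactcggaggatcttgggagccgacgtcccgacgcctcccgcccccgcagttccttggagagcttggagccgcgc
CBR1, chr21:36069774-36070073, plus strand: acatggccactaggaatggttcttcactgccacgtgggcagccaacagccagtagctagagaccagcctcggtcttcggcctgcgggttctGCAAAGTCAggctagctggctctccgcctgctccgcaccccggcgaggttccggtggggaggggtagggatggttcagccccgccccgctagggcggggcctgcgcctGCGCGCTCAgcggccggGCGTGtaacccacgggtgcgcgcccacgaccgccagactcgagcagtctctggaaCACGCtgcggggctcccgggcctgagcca
EPHX1, chr1:225825104-225825403, plus strand: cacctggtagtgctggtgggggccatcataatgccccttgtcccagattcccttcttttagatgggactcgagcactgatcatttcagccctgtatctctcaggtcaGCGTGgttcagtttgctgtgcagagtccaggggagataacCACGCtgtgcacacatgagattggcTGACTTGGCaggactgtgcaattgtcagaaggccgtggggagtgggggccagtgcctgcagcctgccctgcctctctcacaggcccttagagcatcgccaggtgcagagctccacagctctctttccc
The antioxidant response element core was found at -78 to -70 from the start in 1 of the 3 EPHX1 windows, as TGACTTGGC, and on the opposite strand at -159 to -151 in CBR1, as TGACTTTGC. In NQO1 the looser form was found at -119 to -111 and the dioxin response core at 2 to 6, both on the opposite strand. The dioxin response core was also found in the EPHX1 and CBR1 windows shown and in an ALDH3A2 window. Matches to the looser form alone were also found in CBR1, ALDH3A2 and AADAC. The PTGR1 window held none of these letters. Of 35116 promoter windows, 13.3% held the antioxidant response element core, 41.8% its looser form and 36.5% the dioxin response core. Counted by gene, with a match in any window, the shares were 19.8%, 51.5% and 58.1%. These are of the 9625 genes with a window among those tested below. These matches describe the letters in the windows and were not tested for binding. Sequence outside the windows was not searched, so a gene without a match here may hold one elsewhere.

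Values are FPKM, fragment counts scaled by transcript length and by the mapped total of a library, which allow levels of different genes to be set side by side. In untreated spheroids at 24 h the order of mean levels was NQO1 at 436 FPKM, EPHX1 at 84.5 FPKM, ALDH3A2 at 48.5 FPKM, CBR1 at 14.6 FPKM and PTGR1 at 8.65 FPKM, followed by AADAC at 0.93 FPKM and ALDH3A1 at 0.847 FPKM. The libraries of AADAC and ALDH3A1 overlapped, and those of the other neighbours in this order did not. NQO1 ranked 174 among all genes by its mean in that group and PTGR1 ranked 6791. The order changed under TPN. PTGR1 exceeded CBR1 in every library exposed for 24 h, and at 144 h, with a mean of 42.3 FPKM and rank 1841, it stood just below ALDH3A2, whose lowest library of 44.6 FPKM exceeded the highest PTGR1 library of 43.5 FPKM.

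**Figure D1:**
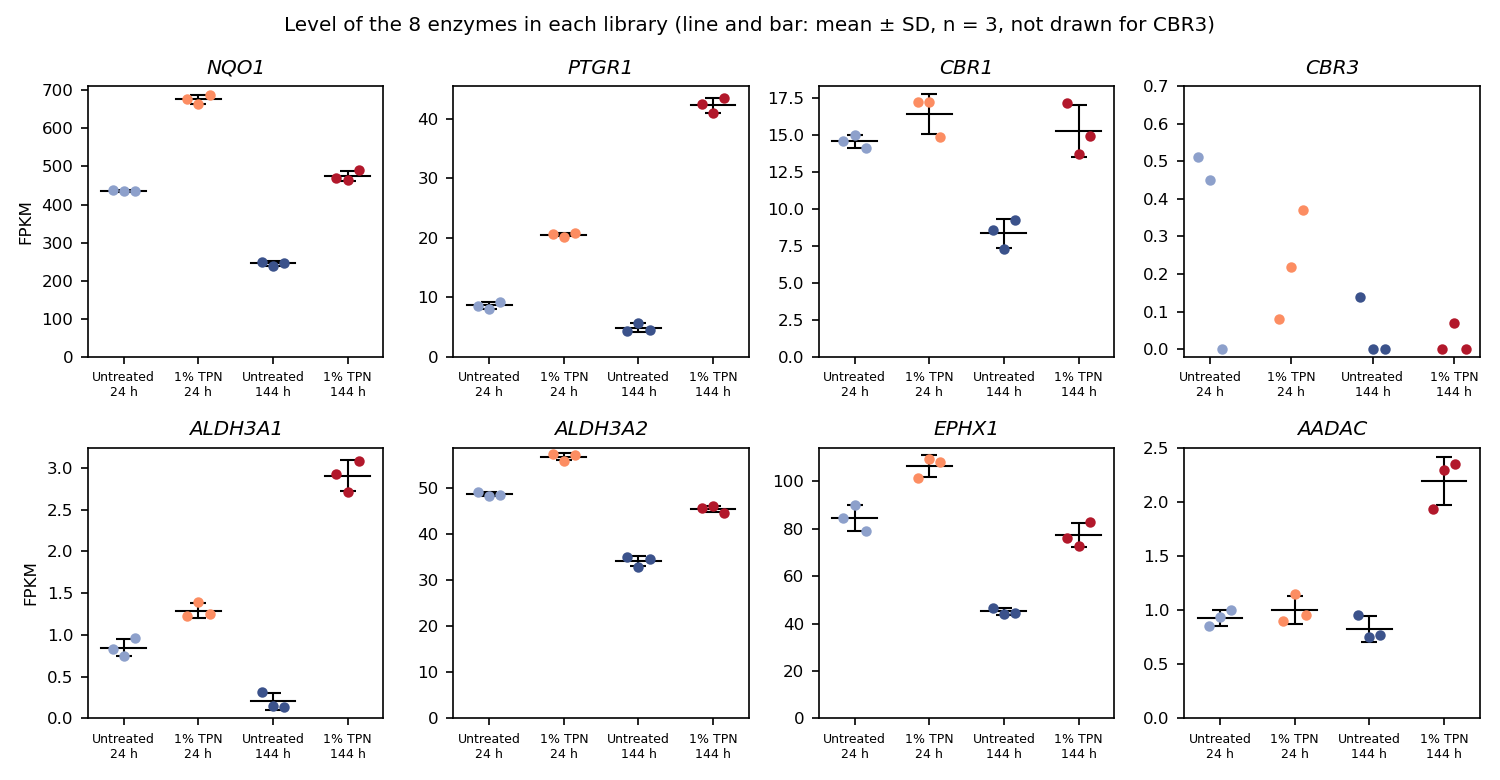
FPKM (y axis, linear, a separate scale for each gene) of the 8 enzymes in each of the 12 libraries, by group (x axis), with points for libraries and a line and bar for the mean ± SD of 3 libraries. The exposed libraries at 144 h lie above the untreated libraries at 144 h in 7 of the 8 panels, and CBR3 is near 0 there.

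Under TPN, 4 of the 7 enzymes that could be tested rose after 24 h and 7 of 7 rose after 144 h. The enzymes were chosen with earlier results of these data known. The shares of all genes given here and below describe the background and make no independent test. CBR3 was below the filter, a mean of 0.5 FPKM over the 12 libraries, and was not tested. A gene rose or fell when its Benjamini-Hochberg adjusted p value from limma was below 0.05, and it was called a differentially expressed gene (DEG) when its log2 fold change also exceeded 0.58 in size. At 24 h the 4 genes that rose were PTGR1, NQO1, EPHX1 and ALDH3A2, against 5.04% of the 11713 genes tested that rose, and PTGR1 and NQO1 were DEGs, against 0.64% of genes. At 144 h 24.2% of all genes rose and 5.75% were upregulated DEGs, and 6 of the 7 enzymes were upregulated DEGs, ALDH3A2 being the exception. The median log2 fold change of the 7 enzymes was 0.33 at 24 h and 0.95 at 144 h, beside medians over all genes of -0.0045 and -0.018. Each of the 7 tested genes, ALDH3A1 and AADAC included, also had a mean above 0.5 FPKM over the 9 libraries outside its highest group. The libraries did not overlap, with the exposed ones higher, for 5 of the 7 at 24 h, against 13.9% of genes, and for 7 of 7 at 144 h, against 27.2%.

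**Figure D2:**
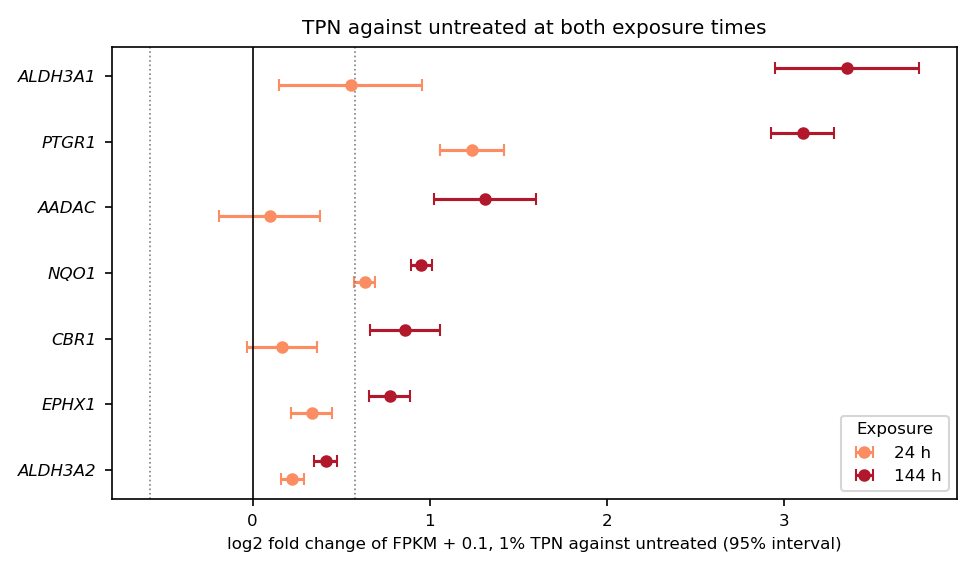
Log2 fold change of FPKM + 0.1 between 1% TPN and untreated spheroids (x axis) for the 7 enzymes tested (y axis), with 95% intervals from limma, at 24 h (orange) and 144 h (red), and dotted lines at the DEG threshold of 0.58 in either direction. The 144 h value lies to the right of the 24 h value for each gene, furthest for ALDH3A1, at 3.36 against 0.55.

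NQO1 reduces quinones by transferring a pair of electrons at once, which bypasses the semiquinone radical. The table places it on chromosome 16 at 69709401 to 69732999 (GRCh38.p13). It was listed at 439, 434 and 435 FPKM in untreated spheroids and at 678, 664 and 688 FPKM in exposed spheroids at 24 h. At 144 h it was listed at 250, 239 and 248 FPKM in untreated and at 471, 464 and 491 FPKM in exposed spheroids. The exposed libraries were higher at both times with no overlap, while both groups were lower at 144 h than at 24 h. NQO1 rose by 0.63 on the log2 scale at 24 h (SE 0.028, adjusted p = 5.52e-09) and by 0.95 at 144 h (SE 0.028, adjusted p = 1.23e-11), and its mean was 1.55 and 1.94 times that of untreated spheroids. The mean exposed level at 144 h was 109% of that in untreated spheroids at 24 h.

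PTGR1 reduces the double bond of alkenals such as 4-hydroxynonenal, a product of lipid peroxidation, and also inactivates leukotriene B4. It lies on chromosome 9 at 111549722 to 111599855. Its libraries read 8.58, 8.10 and 9.27 FPKM without TPN and 20.6, 20.2 and 20.8 FPKM with TPN at 24 h. At 144 h they read 4.29, 5.73 and 4.56 FPKM without TPN and 42.5, 41.0 and 43.5 FPKM with TPN. The lowest exposed library at 144 h was therefore far above the other 3 groups. The rise was 1.24 on the log2 scale at 24 h (SE 0.083, adjusted p = 3.78e-07) and 3.11 at 144 h (SE 0.083, adjusted p = 4.93e-12), the latter a ratio of means of 8.70. By rank of fold change PTGR1 was number 14 of 11713 genes at 24 h and number 6 at 144 h.

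CBR1 is a cytosolic reductase of quinones, prostaglandins and anthracycline drugs, on chromosome 21 at 36070024 to 36073164. At 24 h its libraries were at 14.59, 14.98 and 14.13 FPKM in untreated and 17.2, 17.2 and 14.8 FPKM in exposed spheroids. At 144 h they were at 8.57, 7.29 and 9.22 FPKM in untreated and 17.2, 13.7 and 14.9 FPKM in exposed spheroids. The groups overlapped at 24 h, through the third exposed library, and were apart at 144 h. The log2 fold change at 24 h was 0.17, with a 95% interval of -0.029 to 0.37 (adjusted p = 0.295), and at 144 h CBR1 rose by 0.86 (SE 0.092, adjusted p = 3.67e-06). Of the 50-base stretches of CBR1 transcripts in GENCODE v44, 13.3% were shared with another gene whose exons overlap it on the same strand. CBR1 and that gene cannot be fully told apart by short reads. With CBR3, 0 stretches were shared.

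CBR3, the close relative of CBR1 on the same chromosome at 36130376 to 36146562, was barely detected. Its libraries were listed at 0.51, 0.45 and 0 FPKM in untreated and 0.08, 0.22 and 0.37 FPKM in exposed spheroids at 24 h, and at 0.14, 0 and 0 FPKM and 0, 0.07 and 0 FPKM at 144 h. Its nonzero values were multiples of about 0.0735 FPKM within 0.122 of a step, taken as the worth of 1 fragment. That gives 13 and 9 fragments over the untreated and exposed groups at 24 h and 2 and 1 at 144 h, at most 7 in a library. A library at 0 allows up to 0.221 FPKM (3 fragments, counting error only), so differences between treatments of about that size were not detectable at this depth.

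ALDH3A1 oxidizes aromatic and medium-chain aldehydes, is abundant in cornea and is known as a gene that tumour cells of the liver can switch on. It lies on chromosome 17 at 19737682 to 19748390. At 24 h the libraries were at 0.83, 0.75 and 0.96 FPKM in untreated and at 1.22, 1.39 and 1.25 FPKM in exposed spheroids. At 144 h they were at 0.32, 0.15 and 0.14 FPKM in untreated and at 2.93, 2.71 and 3.08 FPKM in exposed spheroids. The groups did not overlap at either time, with the untreated libraries at 144 h the lowest of the 12. The log2 fold change of 0.55 at 24 h did not pass the test (95% interval 0.15 to 0.96, adjusted p = 0.0794), but it passed in 3 alternatives. The adjusted p value was 0.0164 with a constant of 1 (log2 fold change 0.31), 0.0298 when the 24 h libraries were fitted alone and 0.0124 without the first untreated library of 144 h. The count of enzymes that rose at 24 h is 5 of 7 in these. ALDH3A1 rose by 3.36 at 144 h (SE 0.19, adjusted p = 7.64e-09). That size depends on the constant added before the logarithm and was 1.70 with a constant of 1 and 3.87 with 0.01. The untreated level at 144 h rests on few fragments, each worth about 0.0406 FPKM for a transcript of 1600 bases.

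ALDH3A2, the neighbour of ALDH3A1 on chromosome 17 at 19595308 to 19677596, encodes the fatty aldehyde dehydrogenase of the endoplasmic reticulum that is deficient in Sjögren-Larsson syndrome. It was listed at 49.0, 48.3 and 48.4 FPKM in untreated and 57.2, 55.8 and 57.1 FPKM in exposed spheroids at 24 h. The 144 h libraries were at 34.9, 32.9 and 34.5 FPKM in untreated and 45.5, 46.1 and 44.6 FPKM in exposed spheroids. The exposed libraries were higher at both times with no overlap. ALDH3A2 rose by 0.22 at 24 h (SE 0.030, adjusted p = 2.95e-04) and by 0.41 at 144 h (SE 0.030, adjusted p = 9.63e-08), below the DEG threshold both times. ALDH3A1 and ALDH3A2 shared 0 stretches of 50 bases in GENCODE v44.

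EPHX1, the microsomal epoxide hydrolase, turns epoxides of aromatic compounds and drugs into diols. It lies on chromosome 1 at 225810124 to 225845563. At 24 h it was at 84.5, 89.8 and 79.3 FPKM in untreated and at 101, 110 and 108 FPKM in exposed spheroids. At 144 h it was at 46.7, 44.1 and 44.5 FPKM in untreated and at 75.9, 72.9 and 82.9 FPKM in exposed spheroids. The groups were apart at both times. The third exposed library at 144 h reached into the range of untreated spheroids at 24 h, and the first and second lay below it. EPHX1 rose by 0.33 at 24 h (SE 0.053, adjusted p = 0.00111) and by 0.77 at 144 h (SE 0.053, adjusted p = 4.99e-08).

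AADAC, arylacetamide deacetylase, is an esterase of the endoplasmic reticulum that hydrolyzes drugs and is thought to act on triglyceride stores. It lies on chromosome 3 at 151814008 to 151828488. At 24 h the libraries were at 0.85, 0.94 and 1.00 FPKM in untreated and at 0.90, 1.15 and 0.96 FPKM in exposed spheroids. At 144 h they were at 0.96, 0.75 and 0.77 FPKM in untreated and at 1.94, 2.30 and 2.35 FPKM in exposed spheroids. The first 3 of these groups overlapped, and the exposed libraries at 144 h stood above each of them. The log2 fold change at 24 h was 0.10, with a 95% interval of -0.19 to 0.38 (adjusted p = 0.736), and AADAC rose by 1.31 at 144 h (SE 0.13, adjusted p = 2.40e-06). With a constant of 1 in place of 0.1 the latter was 0.81.

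Whether the response to TPN differed between exposure times was tested as the difference of the log2 fold changes, 144 h minus 24 h. It was above 0 at an adjusted p value below 0.05 for 7 of the 7 enzymes, against 14.1% of all genes, and above 0.58 as well for 4 of them, against 4.2%. These 4 were ALDH3A1 with a difference of 2.80 (SE 0.27, adjusted p = 7.81e-06), PTGR1 with 1.87 (SE 0.12, adjusted p = 2.49e-07), AADAC with 1.22 (SE 0.19, adjusted p = 3.42e-04) and CBR1 with 0.69 (SE 0.13, adjusted p = 0.00135). With a constant of 1 the difference was 1.39 for ALDH3A1 and 0.75 for AADAC. For EPHX1, NQO1 and ALDH3A2 the difference was 0.44, 0.32 and 0.19, with adjusted p values from 5.33e-05 to 0.00458. The median difference was 0.69 over the 7 enzymes and -0.020 over all genes.

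Time in culture without TPN moved most of the same enzymes downwards. In untreated spheroids 6 of 7 fell between 24 h and 144 h, against 52.4% of all genes, and 5 of 7 were downregulated DEGs, against 12.2%. This comparison and those at each time share libraries. Over all genes the median was -0.18 here on the log2 scale, and -0.0078 after median-ratio scaling, so values are also given relative to it. ALDH3A1 fell by 1.69 (SE 0.19), EPHX1 by 0.90 (SE 0.053), NQO1 by 0.83 (SE 0.028), PTGR1 by 0.83 (SE 0.083) and CBR1 by 0.80 (SE 0.092), with adjusted p values of at most 2.88e-06. With a constant of 1 the fall of ALDH3A1 was 0.62 in size. Relative to the median gene the value was -0.72 for EPHX1, -0.65 for NQO1, -0.64 for PTGR1 and -0.62 for CBR1. ALDH3A2 fell by 0.51 (SE 0.030, adjusted p = 4.22e-09), or by 0.33 after median-ratio scaling, and the log2 fold change of AADAC was -0.16 (SE 0.13, adjusted p = 0.303).

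Under TPN the same interval split the enzymes into separate directions. PTGR1, ALDH3A1 and AADAC rose from 24 h to 144 h, 3 of 7 against 24.2% of all genes, and these 3 were upregulated DEGs, against 9.51%. Their log2 fold changes were 1.04 (SE 0.083), 1.12 (SE 0.19) and 1.06 (SE 0.13), with adjusted p values of at most 9.22e-05, and the AADAC value was 0.67 with a constant of 1. NQO1, EPHX1 and ALDH3A2 fell, 3 of 7 against 52% of all genes, by 0.51, 0.46 and 0.32, and none of these passed the DEG threshold. After median-ratio scaling they fell by 0.33, 0.29 and 0.14. The CBR1 value was -0.11 (SE 0.092, adjusted p = 0.303), and it was 0.069 after median-ratio scaling. The median over all genes was -0.18 in this comparison.

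**Figure D3:**
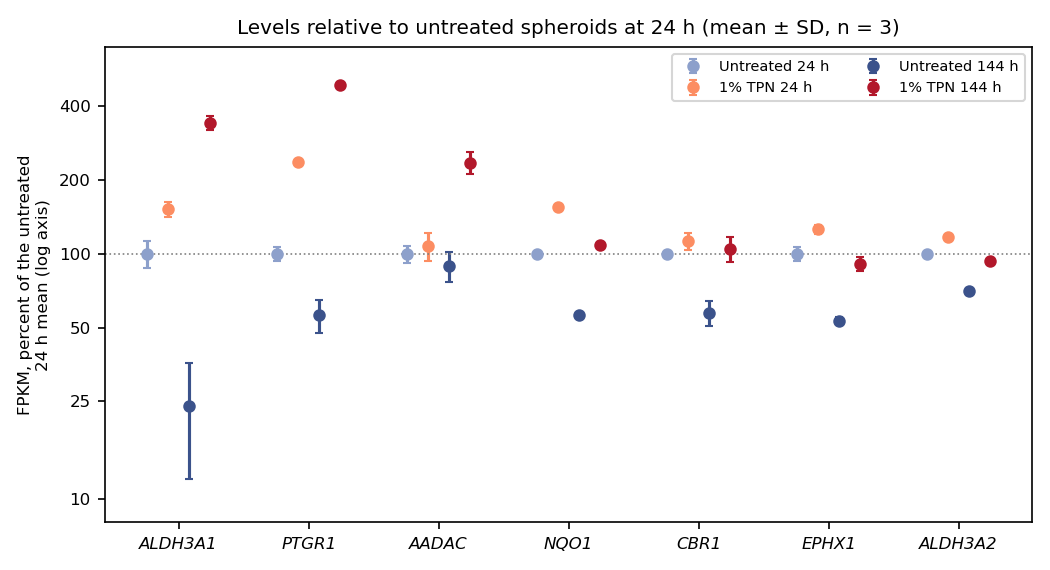
Mean FPKM ± SD of 3 libraries per group as a percent of the mean of untreated spheroids at 24 h (y axis, log scale) for the 7 enzymes tested (x axis), with colours for the 4 groups. At 144 h with TPN, PTGR1, ALDH3A1 and AADAC are at 489%, 343% and 236%, and NQO1, CBR1, ALDH3A2 and EPHX1 are at 109%, 105%, 93.5% and 91.3%.

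Set against untreated spheroids at 24 h, the levels after 144 h of TPN fell into a high and a near group, a description that was not tested. PTGR1 was at 489% ± 14.6, ALDH3A1 at 343% ± 21.98 and AADAC at 236% ± 24.1 of that level (SD, n = 3). NQO1 was at 109% ± 3.13, CBR1 at 105% ± 12.2, ALDH3A2 at 93.5% ± 1.54 and EPHX1 at 91.3% ± 6.05 (SD, n = 3). Without TPN the levels at 144 h were 24.0% for ALDH3A1, 53.3% to 57.4% for EPHX1, PTGR1, NQO1 and CBR1, 70.2% for ALDH3A2 and 88.9% for AADAC.

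Over the 12 libraries, Pearson's r of log2(FPKM + 0.1) among NQO1, CBR1, ALDH3A2 and EPHX1 was 0.909 to 0.982, and among PTGR1, ALDH3A1 and AADAC it was 0.830 to 0.943. The sets were not cleanly apart, since ALDH3A1 reached 0.831 with CBR1 and 0.764 with NQO1, and PTGR1 0.722 with CBR1. The points fall into 4 groups of libraries, so these values describe the group pattern and carry no test. Among 8332 genes with a mean of at least 5 FPKM, the most similar to NQO1 were RGS3 (r = 0.990) and MGST1 (r = 0.990), the latter a microsomal glutathione transferase with means of 180 and 245 FPKM at 24 h and 111 and 175 FPKM at 144 h. Closest to PTGR1 were HMGA1 (r = 0.989) and DUSP13 (r = 0.985), to ALDH3A1 CEACAM1 (r = 0.984) and SPP1 (r = 0.980), and to AADAC JOSD1 (r = 0.970) and GALNT2 (r = 0.968). The nearest to EPHX1 were TALDO1 (r = 0.991), an enzyme of the pentose phosphate pathway, and ODC1 (r = 0.989), the first enzyme of polyamine synthesis. ODC1 (r = 0.992) was also close to ALDH3A2, after DBN1 (r = 0.994), and CBR1 was nearest to GRB2 (r = 0.969) and EFHD2 (r = 0.964). For CBR3, with its few fragments, the highest were RIOK1 (r = 0.893) and CBWD1 (r = 0.872).

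Relatives of these enzymes did not follow one direction. In the lists below the 8 genes are left out, a list is described by its counts and its median, and genes named without passing the DEG threshold were picked after their values were seen. These counts stand beside all genes tested, of which 5.04% rose and 5.46% fell at 24 h. At 144 h 24.2% rose and 28.3% fell. Of the 4 other quinone reductases, 3 rose at 144 h (NQO2, CRYZ and AIFM2, by 0.14 to 0.20) and AIFM2 also at 24 h, with list medians of 0.10 at 24 h and 0.17 at 144 h. Of 5 alkenal reductases tested, none rose or fell at 24 h (median 0.021) and 2 rose at 144 h (PTGR2 by 0.33 and VAT1 by 0.41, median 0.088). Of 5 other carbonyl reductases tested, 1 rose and 2 fell at 24 h (median -0.14), and 3 fell at 144 h (median -0.30). Among them DHRS2, a mitochondrial dicarbonyl reductase, fell from 432 ± 7.91 to 221 ± 8.51 FPKM at 144 h (SD, n = 3), by 0.97 on the log2 scale (SE 0.041, adjusted p = 5.28e-10).

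Of 12 aldehyde dehydrogenases tested other than ALDH3A1 and ALDH3A2, 3 rose and 3 fell at 24 h (median -0.071), and 2 rose and 7 fell at 144 h (median -0.31), when 28.3% of all genes fell. ALDH8A1, an enzyme of tryptophan breakdown, fell from 2.19 ± 0.330 to 0.967 ± 0.117 FPKM at 144 h (adjusted p = 4.68e-06 with limma) and ALDH6A1, of valine breakdown, from 26.6 ± 0.695 to 12.8 ± 0.0924 FPKM (adjusted p = 1.42e-10 with limma). The 2 that rose were ALDH1A1, which oxidizes retinal, by 0.55, and the mitochondrial ALDH1B1, by 0.30. EPHX2, the soluble epoxide hydrolase and the only other one tested, had a log2 fold change of -0.074 at 24 h (adjusted p = 0.363) and fell by 0.28 at 144 h (adjusted p = 1.72e-04), where EPHX1 rose.

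Of 8 other esterases and lactonases tested, 1 rose and 1 fell at 24 h (median -0.099), and 2 rose and 4 fell at 144 h (median -0.13). CES1, the main carboxylesterase of liver, was the one upregulated DEG and rose from 4.96 ± 0.861 to 17.02 ± 0.665 FPKM at 144 h, by 1.77 (SE 0.11, adjusted p = 1.66e-08). PON1, a lactonase secreted on lipoproteins, fell by 0.75 (SE 0.16, adjusted p = 0.00162). Of 5 molybdenum oxidases and alcohol dehydrogenases tested, 1 fell at 24 h (median 0.029), and at 144 h AOX1, aldehyde oxidase, rose by 0.85 and ADH4 by 0.88, while SUOX, ADH5 and ADH6 fell (median -0.21). ADH6 fell by 0.66 (SE 0.052, adjusted p = 1.99e-07).

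The aldo-keto reductases, which reduce the same kinds of carbonyl, held the largest changes among these families. Of 10 tested, 4 rose and 0 fell at 24 h (median 0.037), and 5 rose and 2 fell at 144 h (median 0.40). AKR1B10, a retinal and aldehyde reductase, was at 174 ± 13.4 and 468 ± 13.5 FPKM in untreated and exposed spheroids at 24 h and at 91.8 ± 5.68 and 440 ± 16.3 FPKM at 144 h (SD, n = 3), and rose by 1.43 and 2.26. AKR1C1, AKR1C2 and AKR1C3, which reduce ketosteroids, rose by 2.14, 2.02 and 0.77 at 144 h, and AKR1C2 by 1.45 at 24 h. The AKR1C genes are near-identical copies between which reads can be split, so their separate values are uncertain.

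**Figure D4:**
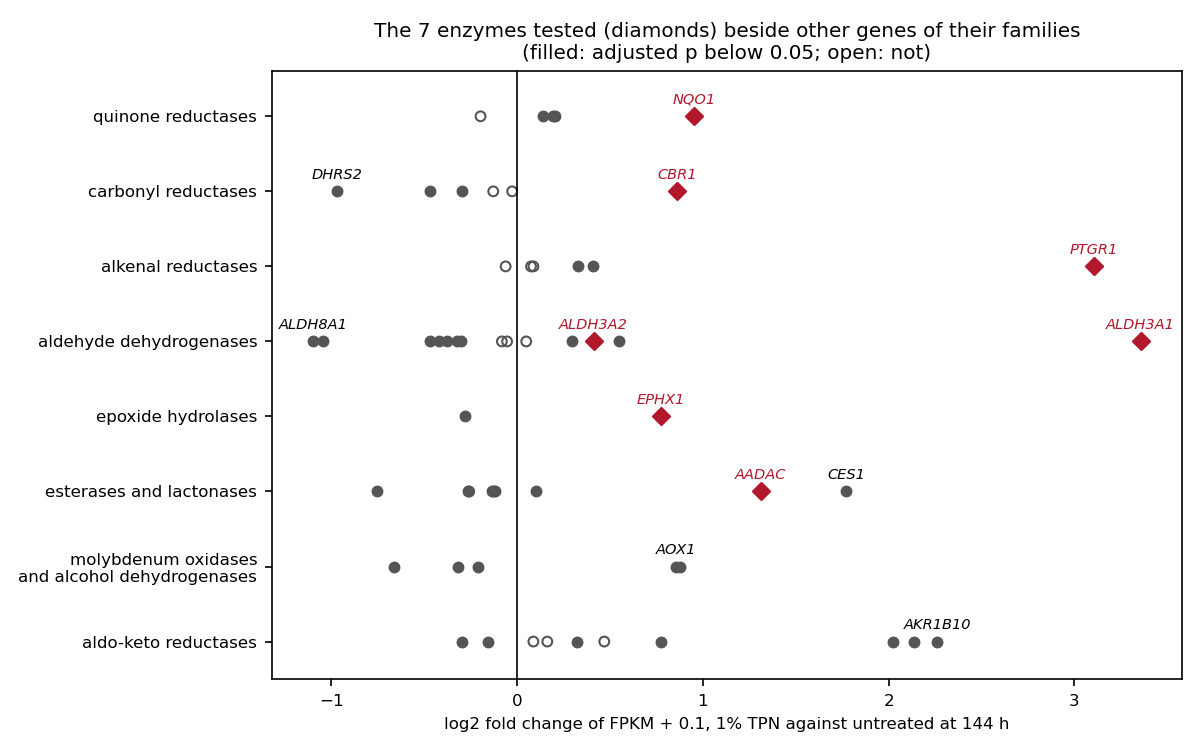
Log2 fold change of FPKM + 0.1 between 1% TPN and untreated spheroids at 144 h (x axis) for the 7 enzymes tested (red diamonds) and the other tested genes of 8 enzyme families (grey circles, filled where the adjusted p value is below 0.05), 1 family per line (y axis). The diamonds lie right of 0, while carbonyl reductases and aldehyde dehydrogenases reach down to -0.97 for DHRS2 and -1.10 for ALDH8A1.

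The table annotates 4 of the 8 genes (CBR1, CBR3, ALDH3A1 and EPHX1) to the KEGG map of xenobiotic metabolism by cytochrome P450, among 63 genes. Of the 59 others 38 were tested. At 24 h 4 rose and 5 fell (median -0.035), against 5.04% and 5.46% of all genes. Among them DHDH, a dihydrodiol dehydrogenase, rose from 0.577 to 1.36 FPKM and AKR1C1 by 1.04 on the log2 scale. At 144 h 14 rose and 6 fell (median 0.036), against 24.2% and 28.3% of all genes. The largest rises at 144 h were those of UGT1A1, which conjugates bilirubin, from 0.210 to 3.15 FPKM, of AKR1C1, and of the glutathione transferases GSTA2, from 4.10 to 17.6 FPKM, and GSTA1, from 1.56 to 5.59 FPKM. UGT1A1 averaged 0.293 and 0.42 FPKM at 24 h, in untreated and exposed spheroids. It passed the filter of 0.5 FPKM only through exposed spheroids at 144 h, the group where it was high. So did UGT2B4, also among the 14 that rose. UGT1A1 shares exons with the other UGT1A genes and GSTA1 is nearly identical to GSTA2, so their separate values are uncertain.

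Of 11 factors that control such genes and were tested, 5 rose and 2 fell at 24 h (median 0.14), against 5.04% and 5.46% of all genes. At 144 h 7 rose and 2 fell (median 0.32), against 24.2% and 28.3%, and none was a DEG at either time. NFE2L2 fell by 0.31 at 24 h and by 0.40 at 144 h (adjusted p = 1.95e-05 and 1.93e-07 with limma), from 97.4 to 78.5 FPKM and from 102 to 77.2 FPKM. KEAP1 rose by 0.29 and 0.39, and MAFG, a partner of NRF2, by 0.31 and 0.53. NR1I2, the pregnane X receptor, rose by 0.30 and 0.53. BACH1 rose by 0.28 and 0.42, and ARNT fell by 0.21 and 0.13. AHR, the dioxin receptor, had a value of -0.12 at 24 h (adjusted p = 0.222) and rose by 0.32 at 144 h.

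Markers of the cell lines moved with time and TPN. The summed level of 9 hepatocyte markers was 11945 to 12309 FPKM in untreated and 11004 to 11038 FPKM in exposed spheroids at 24 h, and 13298 to 14279 FPKM and 10376 to 11113 FPKM at 144 h. Of these 9, 5 fell with TPN at 24 h and 7 at 144 h, when ALB fell by 0.65 and TF by 0.59, and none rose. Over all genes 5.46% fell at 24 h and 28.3% at 144 h. The list medians were -0.15 and -0.35. The sum of 11 stellate markers was 139 to 147 FPKM and 124 to 127 FPKM at 24 h and 76.1 to 80.9 FPKM and 70.6 to 73.1 FPKM at 144 h, and it is carried largely by ACTA2 and SPARC. Of 9 stellate markers tested, 1 fell with TPN at 24 h (median -0.13) and 6 at 144 h (median -0.86), among them COL3A1 by 1.40, COL1A1 by 1.25, COL1A2 by 1.07 and VIM by 1.07. Over time without TPN 8 of 9 fell (median -2.11), against 52.4% of all genes. DES and LUM were below 0.5 FPKM in every library, and COL1A2 and COL5A1 in every library at 144 h. Of 6 markers of other liver cells, PTPRC, PECAM1, VWF and KRT7 were below 0.5 FPKM in every library, CD68 rose with TPN by 0.17 and 0.41 and KRT19 fell by 0.25 and 0.52 (24 h and 144 h). The part of these shifts in the enzyme levels was not tested.

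Depth was similar among libraries. In 74 short genes 95.1% of 453 low values lay within 0.15 of a whole fragment, which gave an estimate of 1.80e+07 to 1.90e+07 fragments per library. Pearson's r of log2(FPKM + 0.1) between libraries was 0.993 to 0.996 within groups and 0.977 to 0.994 between treatments at the same time. An exact permutation test of 3 against 3 libraries has 20 arrangements and cannot go below p = 0.1, a value reached (2-sided) by 5 of the 8 genes for TPN at 24 h and by 7 of 8 at 144 h. Groups without overlap in either direction, the pattern behind that value, were found in 29.9% and 57.3% of all genes tested at these times, in 74.9% for untreated spheroids over time and in 77.9% for exposed spheroids over time.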

How the data were processed

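RNA of 12 spheroid libraries was sequenced after mRNA purification and strand-specific library construction. The authors filtered reads with SOAPnuke, mapped them with HISAT2 2.0.4 to GRCh38.p13 and with Bowtie2 2.2.5 to transcripts, and calculated FPKM with RSEM, and the FPKM values used here are as deposited, with 2 decimals. Whether strand was used in counting is not given in the sources used here. Exonic overlaps on the opposite strand (NQO1, PTGR1, CBR1, CBR3, ALDH3A1 and EPHX1) may therefore add reads. Of the table, 20 lines with broken annotation and no values were dropped, and every value column matched a sample. The study's DEG method needs read counts, so limma 3.58.1 in R 4.3.3 was used on log2(FPKM + 0.1), with 4 groups in 1 model, an intensity trend and Benjamini-Hochberg adjustment over 11713 genes, those averaging 0.5 FPKM or more over the libraries. The fold change understates changes of low genes. The study's threshold of 0.58 was kept, and the methods name 3 independent experiments. Named were the 8 genes, from each list up to 4 DEGs at 144 h and 2 at 24 h by size, and for each gene the 2 most correlated genes. The members and lists (enzyme families, controlling factors, markers and a KEGG map) were chosen with earlier results of these data known. Same-numbered replicates were compared by the correlation of their deviations from group means. Alternatives changed the constant, filter, scaling, libraries, trend, block and fold threshold. The procedure was also run on simulated data with independent normal noise. That simulation held neither fragment counts nor replicate effects, so it did not cover these. Python 3.11.15 with pandas 2.3.3 and numpy 2.4.6 served for tables.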

Additional observations from a re-analysis of the deposited data

Results flagged for a closer look

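The effect of TPN differed between the exposure times in the 7 enzymes tested, by the test of the difference itself in limma. On the log2 scale the later effect exceeded the earlier by 2.80 for ALDH3A1, 1.87 for PTGR1, 1.22 for AADAC, 0.69 for CBR1, 0.44 for EPHX1, 0.32 for NQO1 and 0.19 for ALDH3A2. With a constant of 1 in place of 0.1, ALDH3A1 gave 1.39 and AADAC 0.75. The groups of 3 libraries were too small to look for single outlying libraries.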

How the results depend on the processing

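The counts of DEGs among the enzymes were 2 and 6 for TPN at 24 h and 144 h, 4 for the difference of these effects, 5 for untreated and 3 for exposed spheroids over time. Without a fold threshold they were 4 at 24 h, 7 at 144 h, 7 for the difference, and 6 each for untreated and exposed spheroids over time. A filter of a mean of at least 5 FPKM leaves out ALDH3A1 and AADAC. Of the 5 enzymes left, 2 were DEGs at 24 h and 4 at 144 h. With this filter the difference gave 2 and exposed spheroids over time 1. The count for untreated spheroids over time loses ALDH3A1. Without any 1 library the counts stayed at 2, 6, 4, 5 and 3. With the replicate number as a block they were also 2, 6, 4, 5 and 3. Same-numbered libraries of different groups shared deviations with correlations of -0.083 to 0.151, above 0.1 in 5 of 18 pairs. For differently numbered libraries the range was -0.241 to 0.114, overlapping but lower. These ranges do not settle whether the numbers pair libraries, and the main model did not pair them. Of 753 alternative log2 fold changes, 750 kept their direction and their DEG status, which needs both the adjusted p value and the fold. The adjusted p value alone crossed 0.05 in 3, each of them ALDH3A1 for TPN at 24 h. The 3 values outside the 750 reversed, with neither side of them passing the test. After median-ratio scaling AADAC went to 0.0027 in untreated spheroids over time, and CBR1 in exposed spheroids over time went to 0.069, or to 0.050 after quantile normalization. By the construction of these scalings the median gene is moved towards 0. In alternatives added after seeing the data, the number of the 8 genes whose groups did not overlap was 5 to 6 for TPN at 24 h, 7 at 144 h throughout, 6 to 7 for untreated and 7 to 8 for exposed spheroids over time when 1 library was left out, beside 29.9%, 57.3%, 74.9% and 77.9% of all genes, so the counts over time lie near the background. These shares are for 3 against 3 libraries, where groups without overlap are harder to reach than with 1 library left out. The count for exposed spheroids over time includes CBR3. Its groups were apart only by 0.08 FPKM at 24 h against 0.07 FPKM at 144 h, about 1 fragment each. The sizes for ALDH3A1 and AADAC depend on the constant, with differences between the TPN effects of 1.39 and 0.75 at a constant of 1. Values of CBR3, and of ALDH3A1 in untreated spheroids at 144 h, are limited by few fragments.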
